A study of Homo sapiens with 12 samples.

Results

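The genes described are 6 ligands of the epidermal growth factor (EGF) family (AREG, EREG, HBEGF, TGFA, BTC and EGF), 3 receptors of the ERBB family (EGFR, ERBB2 and ERBB3) and ADAM17, a membrane protease that releases several of the ligands. They were taken by gene name from a table of 58735 genes, and all 10 were present. The RNA came from HK-2, an immortalized line of human renal proximal tubular epithelium, grown with 10% fetal bovine serum. There were 12 samples in 4 groups of 3. The control group received water, the iohexol group an iodinated contrast agent at 75 mg I/mL, the cisplatin group the platinum drug at 5 μM and the vancomycin group the glycopeptide antibiotic at 4 mM, and the drugs were left on for 48 h. Each group is a single dose and time in 1 cell line, and the labels do not say whether the 3 samples of a group were separate cultures, so the p-values measure a spread between samples that may be technical.

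EGF family ligands are made as membrane-anchored precursors. A protease of the ADAM family cuts the anchor, and the freed growth factor binds EGFR on the same or a neighbouring cell. Bound receptors pair up and phosphorylate each other, and adaptor proteins then pass the signal to the RAS, RAF, MEK and ERK cascade and to PI3K and AKT. ERBB2 has no known ligand and acts as a partner for the others, while ERBB3 binds neuregulins and has little kinase activity of its own. In renal tubules this system is known for its part in regrowth of epithelium after injury.

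AREG, EREG and BTC lie near each other on chromosome 4. In the count table, whose gene ends are those of GENCODE release 29 on GRCh38 for all 10 genes, EREG spans chr4:74365143-74388751 and AREG chr4:74445134-74455009, both on the plus strand with a gap of 56382 bases. BTC follows on the minus strand at chr4:74744759-74794686, and EGF is on the same chromosome at chr4:109912884-110012266. HBEGF is at chr5:140332843-140346631 on the minus strand, TGFA at chr2:70447280-70554193 and ADAM17 at chr2:9488486-9556732, both also on the minus strand. The receptors are on the plus strand, EGFR at chr7:55019021-55211628, ERBB2 at chr17:39687914-39730426 and ERBB3 at chr12:56076799-56103505.

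The 250 bases before the RefSeq start site (GRCh38.p14, gene strand, 5′ to 3′) are printed for AREG, EREG, HBEGF and EGFR. AREG and EREG are neighbouring genes, of which EREG fell with cisplatin. HBEGF was the ligand DEG with cisplatin, and EGFR the receptor DEG with cisplatin and with vancomycin. Capitals mark the letters of a CRE (TGACGTCA), a TATA box (TATAAA) or a GC box (GGGCGG), searched on both strands. The positions are chr4:74444886-74445135 for AREG, chr4:74364895-74365144 for EREG, chr5:140346604-140346853 for HBEGF and chr7:55018767-55019016 for EGFR.
AREG: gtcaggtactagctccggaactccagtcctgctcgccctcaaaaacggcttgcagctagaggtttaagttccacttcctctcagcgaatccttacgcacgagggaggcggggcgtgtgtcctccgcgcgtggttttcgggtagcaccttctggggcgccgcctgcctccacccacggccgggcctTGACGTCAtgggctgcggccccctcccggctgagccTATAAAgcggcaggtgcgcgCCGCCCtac
EREG: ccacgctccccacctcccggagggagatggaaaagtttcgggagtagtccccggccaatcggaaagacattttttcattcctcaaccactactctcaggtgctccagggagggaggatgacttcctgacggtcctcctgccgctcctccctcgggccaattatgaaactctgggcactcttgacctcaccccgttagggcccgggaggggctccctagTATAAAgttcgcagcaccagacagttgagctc
HBEGF: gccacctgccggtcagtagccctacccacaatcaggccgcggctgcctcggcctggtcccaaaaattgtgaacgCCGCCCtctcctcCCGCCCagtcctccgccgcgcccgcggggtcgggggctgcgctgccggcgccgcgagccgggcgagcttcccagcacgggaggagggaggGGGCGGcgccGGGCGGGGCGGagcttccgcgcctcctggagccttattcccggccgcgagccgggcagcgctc
EGFR: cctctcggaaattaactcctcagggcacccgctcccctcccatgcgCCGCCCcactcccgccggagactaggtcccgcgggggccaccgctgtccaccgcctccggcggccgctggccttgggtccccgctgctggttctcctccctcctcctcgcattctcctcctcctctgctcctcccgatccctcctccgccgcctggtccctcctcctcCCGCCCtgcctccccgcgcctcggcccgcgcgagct

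RefSeq start sites were found for 9 of the 10 genes, ERBB3 being the other one. The search covered 300 bases, from 250 before to 50 after the start site. The CRE letters were in the AREG window, with the first base at -65 from the start site, and in 1.85% of 35116 such windows. TATAAA was at -29 in AREG and -32 in EREG, and in 11.5% of all windows. It was also at -146 and -36 in the window of an internal start of EGFR. The HBEGF window held 5 GC boxes, 2 of which overlap by 1 base, and the EGFR window held 3, 1 of them past the printed part. A TGFA window held 4, the ADAM17 window 3 and the AREG and BTC windows 1 each. Over all windows 45% had at least 1. The letters of an AP-1 site (TGACTCA or TGAGTCA) were in 4.95% of all windows and, among these genes, in that of EGF and in that of an internal start of EGFR. CACGTG, an E-box, was in 7.26% of all windows and the CArG box in 1.29%, with no match in the windows of these genes. The share of G and C was 66.3% for AREG, 57.7% for EREG, 75% for HBEGF and 75.3% for EGFR, beside a median of 58.7% over all windows. These letters are a description of sequence, and no binding was measured.

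Total counts per sample were 14057282 to 18177109, so that 3 counts, the limit used for a gene at 0, stood for 0.177 to 0.218 CPM (a count over the sample's total count times its TMM factor, on the usual CPM scale). This limit covers counting error only. Iohexol 3 stood apart from iohexol 1 and 2, where a chi-square over genes divided by its degrees of freedom was 15.5 and 14.6, beside 3.56 for iohexol 1 against 2 and 2.28 to 11.9 for the pairs of samples in the other groups. Of the cell markers, GGT1, PAX8, KRT8, KRT18, KRT19, CDH2 and VIM were between 33.7 and 918 CPM. The apical receptor LRP2 had at most 3 counts and none in 8 samples, and CUBN, AQP1 and SLC34A1 stayed at or below 2.21 CPM and ANPEP at or below 5.05. The brush border genes of the proximal tubule thus ranged from close to absent to the 112 to 381 CPM of GGT1. The summed level of 10 markers of other cell types reached 48.8 to 54.3 CPM with cisplatin and 42.0 to 45.1 with vancomycin, beside 27.4 to 36.6 in control cells and 27.0 to 30.4 with iohexol. COL1A1 made up most of it at 21.9 to 50.4 CPM, UMOD and AQP2 had at most 1 count, and the part of these markers in the results was not tested. In bulk RNA, fewer cells of a kind and less RNA per cell cannot be told apart.

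In control cells the system was a set of ligands dominated by AREG and EREG with EGFR as the main receptor. Per kb of gene length, which allows genes to be compared, the level of AREG was 105 ± 4.98 CPM per kb (SD, n = 3), followed by EREG at 75.3 ± 6.45. TGFA was at 43.8 ± 2.03 and EGFR at 41.6 ± 1.10, and their sample ranges overlapped. HBEGF came next at 28.1 ± 1.11 CPM per kb. ADAM17 at 8.88 ± 0.557 and ERBB2 at 7.39 ± 1.05 overlapped as well. EGF at 1.48 ± 0.290 was above BTC at 0.978 ± 0.136 and ERBB3 at 0.895 ± 0.116, of which the last 2 could not be ordered. The remaining genes of the family were almost silent, with at most 17 counts in any sample for EPGN and 6 for ERBB4. NRG1, a neuregulin, which binds ERBB3 and ERBB4, was the exception at 162 ± 10.8 CPM, a value not divided by gene length. In that unit EREG was at 431 CPM, TGFA at 217 and AREG at 173.

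**Figure D1:**
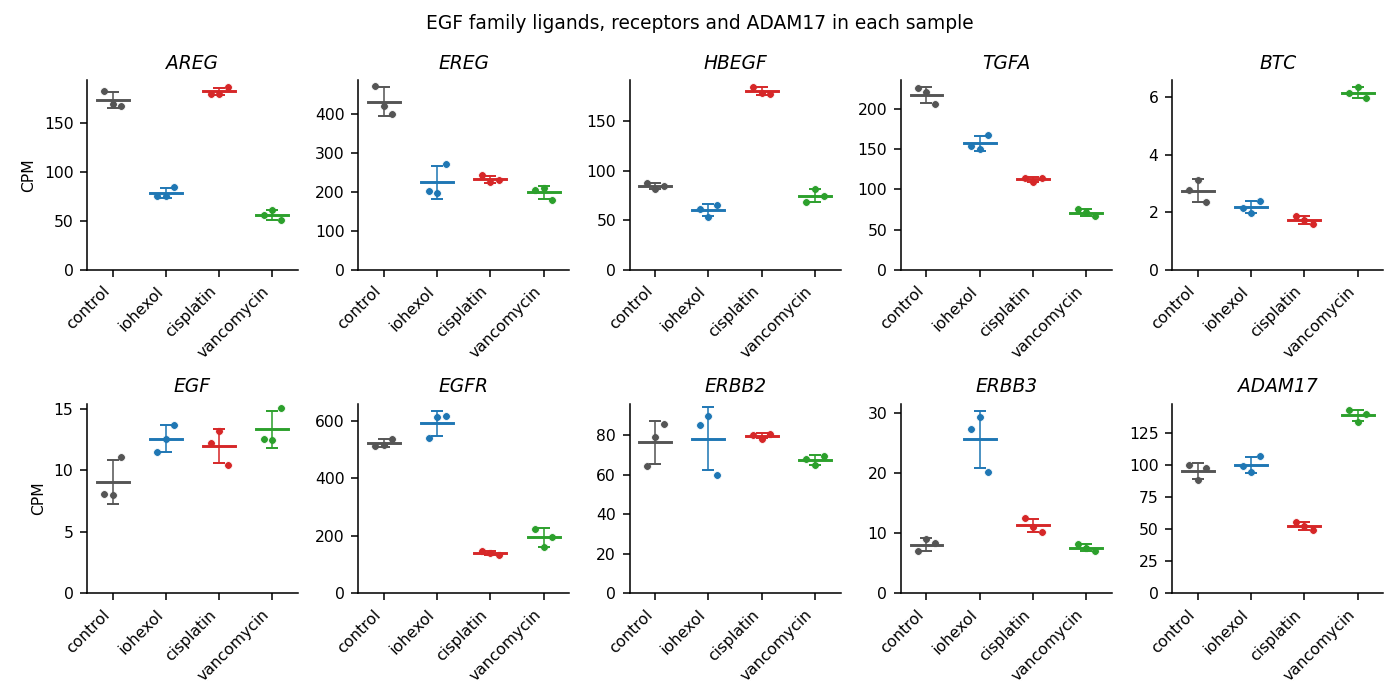
Level of each gene in every sample (y axis, CPM from 0; x axis, group). Points are samples, the wide bar is the group mean and the error bar the SD of 3 samples. AREG is low with iohexol and vancomycin, HBEGF is high with cisplatin, and EGFR is low with cisplatin and vancomycin.

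With iohexol, 4 of the 6 ligands fell and 1 receptor rose. The question of this comparison, as of the other 2 against the control, is which genes a nephrotoxic drug changes against control cells. Of the 10 genes, 5 passed the test (edgeR quasi-likelihood test, Benjamini-Hochberg adjusted p under 0.05 over all genes), beside 21% of 15657 genes tested. The 4 that fell stand beside 9.77% of all genes, and the 1 that rose beside 11.2%. AREG and ERBB3 were also past a log2 change of 1 in size and are called differentially expressed genes (DEGs), a call that 5.28% of all genes received. With cisplatin 8 of the 10 passed, 5 of them lower and 3 higher, beside 59.8% of 15876 genes, of which 30.6% were lower and 29.2% higher. HBEGF and EGFR were DEGs with cisplatin, beside 16.3% of all genes. Vancomycin also gave 8 of 10, with 5 lower and 3 higher, beside 57.9% of 15819 genes, with 28.8% lower and 29.1% higher. The DEGs with vancomycin were AREG, EREG, TGFA, BTC and EGFR, beside 18.5% of all genes. In each comparison 7 of the 10 genes had samples that did not overlap with the control, which held for 37.9% of all genes with iohexol, 65.1% with cisplatin and 63.2% with vancomycin. The median log2 change of the 10 genes was -0.13 with iohexol, -0.31 with cisplatin and -0.22 with vancomycin, beside 0.01, 0.01 and -0.01 over all genes. The 3 comparisons share the control samples.

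AREG encodes amphiregulin, a heparin-binding ligand of EGFR. Its level in the control group was 182, 169 and 167 CPM. With iohexol it was 75.3, 75.6 and 84.0 CPM, and with vancomycin 55.6, 60.6 and 50.6, so that neither group overlapped with the control. With cisplatin it was 179.6, 179.7 and 187 CPM, inside or just above the control range. AREG fell 2.18-fold with iohexol (log2 fold change -1.13 ± 0.09, SE; adjusted p = 4.36e-06, edgeR) and 3.21-fold with vancomycin (-1.68 ± 0.09; adjusted p = 2.81e-13, edgeR). For cisplatin the log2 fold change was 0.07, with a 95% interval of -0.06 to 0.20 (adjusted p = 0.333, edgeR). Without TMM scaling it was 0.29 and passed (adjusted p = 0.000426), and without control 1 it was 0.11 and passed narrowly (adjusted p = 0.0425).

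EREG encodes epiregulin, which binds EGFR and ERBB4. It fell with every drug, in the main test and in all alternatives. The control samples were at 471, 421 and 399 CPM. Iohexol gave 202, 198 and 272 CPM, cisplatin 242, 224 and 231, and vancomycin 204, 210.4 and 180.0. No treated sample reached the lowest control sample. The fold was 1.90 lower with iohexol (log2 fold change -0.93 ± 0.12; adjusted p = 0.000237, edgeR), 1.86 lower with cisplatin (-0.89 ± 0.07; adjusted p = 3.54e-09, edgeR) and 2.24 lower with vancomycin (-1.16 ± 0.09; adjusted p = 1.66e-10, edgeR). Iohexol 3 lay above the other 2 iohexol samples, and without it the log2 change with iohexol was -1.09.

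TGFA encodes transforming growth factor alpha, a ligand with high affinity for EGFR. It too fell with every drug and in all alternatives. Control samples had 225, 220.5 and 206 CPM. The iohexol samples had 153, 149 and 168 CPM, the cisplatin samples 114, 109 and 114, and the vancomycin samples 75.0, 71.5 and 67.0. The 4 groups did not overlap with each other. The log2 fold changes were -0.45 ± 0.09 for iohexol (adjusted p = 0.00294), -0.96 ± 0.06 for cisplatin (adjusted p = 5.71e-10) and -1.65 ± 0.09 for vancomycin (adjusted p = 1.93e-13, all edgeR).

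HBEGF encodes heparin-binding EGF-like growth factor, a ligand of EGFR and ERBB4 that is also the receptor of diphtheria toxin. It rose with cisplatin and fell with iohexol. Control cells gave 88.1, 81.3 and 85.0 CPM and cisplatin-treated cells 185, 178 and 178, a 2.12-fold rise (log2 fold change 1.09 ± 0.06; adjusted p = 1.26e-10, edgeR). Iohexol gave 61.6, 53.8 and 65.8 CPM, all below the control, and HBEGF fell 1.39-fold (-0.47 ± 0.10; adjusted p = 0.00541, edgeR). Vancomycin gave 68.6, 81.5 and 74.3 CPM, of which the second lay within the control range. That change of -0.22 ± 0.09 passed the test only narrowly (adjusted p = 0.043, edgeR) and did not pass without control 1, 2 or 3 or without vancomycin 1 or 3, with adjusted p-values up to 0.189.

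BTC, betacellulin, and EGF itself were the least abundant ligands. BTC was at 2.76, 3.14 and 2.37 CPM in control cells and at 6.13, 6.35 and 5.97 with vancomycin, the highest 3 values of the series. It rose 2.16-fold with vancomycin (log2 fold change 1.11 ± 0.22; adjusted p = 0.000112, edgeR). With cisplatin the samples had 1.88, 1.72 and 1.60 CPM, all below the control, and BTC fell by 0.67 ± 0.26 on the log2 scale (adjusted p = 0.0317, edgeR). This call was lost without control 1, control 2, cisplatin 2 or cisplatin 3, with adjusted p-values up to 0.117. With iohexol (2.14, 1.98 and 2.41 CPM) the samples overlapped with the control, and the interval of the log2 change was -0.85 to 0.21.

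EGF was at 8.05, 8.03 and 11.1 CPM in the control group. It was at 11.5, 12.5 and 13.7 CPM with iohexol, at 12.2, 13.2 and 10.5 with cisplatin and at 12.5, 12.4 and 15.03 with vancomycin. Control 3 lay close to the treated samples, and 1 cisplatin sample was below it. EGF rose with vancomycin (log2 fold change 0.51 ± 0.16; adjusted p = 0.00776) and with cisplatin (0.40 ± 0.15; adjusted p = 0.0295), whereas the iohexol value of 0.49 ± 0.16 just missed the threshold (adjusted p = 0.0525, all edgeR). The cisplatin call was lost without control 1, control 2, cisplatin 1 or cisplatin 2 (adjusted p up to 0.137). The vancomycin call was lost without vancomycin 3 (adjusted p = 0.0523), and the iohexol value passed in 5 of 14 alternatives, at the lowest without control 3 (adjusted p = 0.0277). The other EGF family ligand with counts, NRG1, passed with all drugs and fell from 162 to 90.2 CPM with iohexol (log2 fold change -0.82), 70.1 with cisplatin (-1.21) and 54.8 with vancomycin (-1.60).

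**Figure D2:**
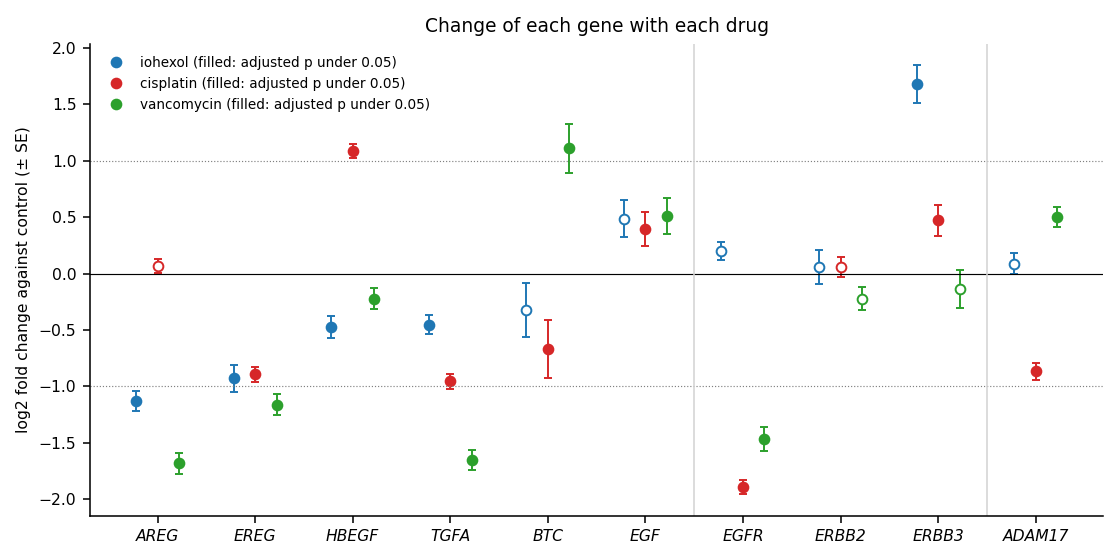
Change of each gene against control (y axis, log2 fold change with SE from the edgeR fit; x axis, gene, grouped into ligands, receptors and ADAM17 by vertical lines). Filled points passed the test, open points did not, and dotted lines mark a change of 1. EREG and TGFA lie below 0 with every drug, while HBEGF with cisplatin, BTC with vancomycin and ERBB3 with iohexol lie above 1.

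EGFR encodes the receptor for all 6 ligands. Its transcript fell steeply with 2 of the drugs. The control group had 510.5, 516 and 537 CPM and the cisplatin group 148, 141 and 132, a 3.72-fold fall (log2 fold change -1.89 ± 0.06; adjusted p = 7.85e-14, edgeR), which ranked 28 of 15876 genes by p. The vancomycin samples had 225, 160.2 and 197 CPM, a wide spread, and EGFR fell 2.76-fold (-1.46 ± 0.10; adjusted p = 2.24e-11, edgeR). Leaving out any 1 sample kept the vancomycin value between -1.58 and -1.34. With iohexol the samples had 542, 614 and 618 CPM. All 3 were above the highest control sample, but the change of 0.20 ± 0.08 did not pass (adjusted p = 0.105, edgeR), with an interval of 0.02 to 0.38. Without TMM scaling it was 0.27 and passed (adjusted p = 0.0354).

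For ERBB2 no drug gave a change past the threshold in the main test. The control samples ranged from 64.4 to 85.6 CPM, the vancomycin samples from 64.6 to 69.4, the cisplatin samples from 78.2 to 80.7 and the iohexol samples from 60.0 to 89.7. All of these ranges overlapped with the control. The 95% intervals of the log2 change were -0.43 to -0.01 for vancomycin (adjusted p = 0.069, edgeR), -0.27 to 0.38 for iohexol and -0.12 to 0.24 for cisplatin. Without control 1 the vancomycin value was -0.33 and passed (adjusted p = 0.00471). Without TMM scaling the vancomycin value was -0.30 (adjusted p = 0.017) and the cisplatin value 0.27 (adjusted p = 0.011), and both passed. The exons of ERBB2 share 5.53% of their bases with those of MIEN1 and 1.88% with those of PGAP3, both on the opposite strand, and the library kit does not mark strand.

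ERBB3 rose with iohexol to a level above that with either other drug. Control cells had 6.96, 9.03 and 8.29 CPM and iohexol-treated cells 27.4, 29.3 and 20.2, a 3.20-fold rise (log2 fold change 1.68 ± 0.17; adjusted p = 3.25e-05, edgeR). Iohexol 3 was the lowest of the treated samples, and without it the change was 1.82. With cisplatin the level was 12.5, 11.1 and 10.3 CPM, above all control samples, and the rise was 1.39-fold (0.47 ± 0.14; adjusted p = 0.00739, edgeR). Vancomycin gave 8.26, 7.56 and 7.02 CPM, within the control range, with an interval of -0.48 to 0.21 for the log2 change.

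ADAM17 moved in opposite directions with cisplatin and vancomycin, as BTC did. It was at 99.9, 88.7 and 97.9 CPM in control cells. Cisplatin gave 55.6, 52.9 and 49.2 CPM and vancomycin 143, 134 and 139.9, and neither overlapped with the control. The gene fell 1.82-fold with cisplatin (log2 fold change -0.86 ± 0.08; adjusted p = 2.83e-08) and rose 1.41-fold with vancomycin (0.50 ± 0.09; adjusted p = 3.97e-05, both edgeR). Iohexol gave 99.4, 94.7 and 107 CPM, with an interval of -0.11 to 0.29. The exons of ADAM17 share 12.3% of their bases with IAH1 on the opposite strand, which had 348 to 586 counts, so reads of these bases cannot be assigned to one gene without strand.

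The drug groups were also tested against each other in a fit of all 12 samples, since separate tests against one control group do not show that drugs differ. Cisplatin and iohexol differed in 6 of the 10 genes, beside 54% of 17073 genes tested. AREG was 2.32-fold and HBEGF 2.99-fold higher with cisplatin (adjusted p = 1.83e-10 and 1.07e-11), and EGFR was 4.21-fold lower (log2 difference -2.07 ± 0.10; adjusted p = 1.39e-12, edgeR). ERBB3 was 2.27-fold, ADAM17 1.91-fold and TGFA 1.40-fold lower with cisplatin. Vancomycin and iohexol differed in 7 genes, beside 56.6% of all genes. BTC was 2.82-fold, ADAM17 1.38-fold and HBEGF 1.24-fold higher with vancomycin, and ERBB3 3.37-fold, EGFR 3.05-fold, TGFA 2.20-fold and AREG 1.41-fold lower.

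Vancomycin and cisplatin also differed in 7 genes, beside 64.7% of all genes. BTC was 3.54-fold, ADAM17 2.64-fold and EGFR 1.38-fold higher with vancomycin, and AREG 3.27-fold, HBEGF 2.41-fold, TGFA 1.58-fold and ERBB3 1.48-fold lower. EREG, EGF and ERBB2 did not pass in any pair of drugs in the main test. For EREG the 95% interval of the log2 difference was -0.17 to 0.27 for cisplatin against iohexol, -0.40 to 0.04 for vancomycin against iohexol and -0.45 to -0.01 for vancomycin against cisplatin (adjusted p = 0.063, edgeR), and without iohexol 3 the first of these was 0.21 and passed (adjusted p = 0.0396). The third passed in 6 of 14 alternatives, among them DESeq2 (-0.26, adjusted p = 0.031) and a separate fit of the 2 groups (-0.28, adjusted p = 0.001). That separate fit also called ERBB2 lower with vancomycin than with cisplatin (-0.29, adjusted p = 0.000859). For EGF the intervals were -0.38 to 0.24, -0.22 to 0.39 and -0.15 to 0.46 in the same order, and for ERBB2 -0.23 to 0.28, -0.47 to 0.04 and -0.49 to 0.01. Without iohexol 3, ERBB2 was lower with vancomycin than with iohexol by 0.38 on the log2 scale (adjusted p = 0.00119). BTC differed in both pairs with vancomycin, and for cisplatin against iohexol its interval was -0.81 to 0.15. Without TMM scaling the vancomycin values for HBEGF against iohexol (0.10) and EGFR against cisplatin (0.13) no longer passed, while EREG and ERBB2 passed as lower with vancomycin than with iohexol (-0.38 and -0.42) and than with cisplatin (-0.56 and -0.57).

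**Figure D3:**
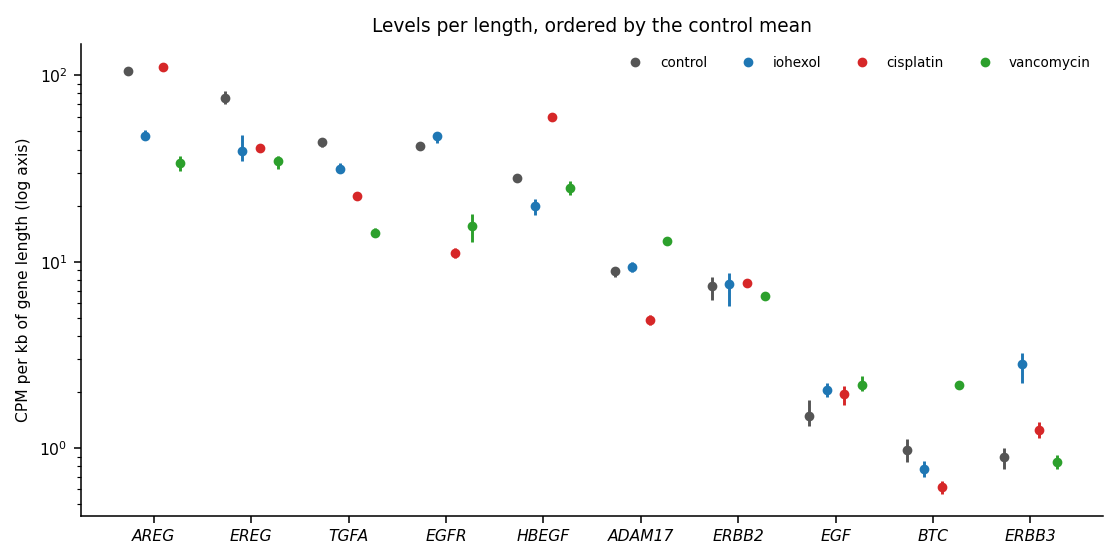
Level of each gene per kb of gene length (y axis, CPM per kb on a log axis; x axis, genes in the order of the control mean). Points are group means of 3 samples and lines span the lowest to the highest sample. EGFR is among the highest genes in control and iohexol cells and has rank 5 with cisplatin, and ERBB3 has the lowest mean in control and vancomycin cells.

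The order of the genes per kb changed with the drug. With iohexol AREG (47.5 ± 2.99 CPM per kb) and EGFR (47.2 ± 3.44) were level at the top, and EREG (39.2 ± 7.33) overlapped with EGFR. With cisplatin AREG stood at 110.4 ± 2.44, HBEGF at 59.8 ± 1.35, EREG at 40.6 ± 1.54, TGFA at 22.6 ± 0.603 and EGFR at 11.2 ± 0.659, and no neighbours in the whole order overlapped. With vancomycin EREG (34.7 ± 2.81) and AREG (33.7 ± 3.03) were not apart, nor were EGFR (15.5 ± 2.60) and TGFA (14.3 ± 0.807) or BTC (2.18 ± 0.066) and EGF (2.17 ± 0.241). BTC was last with iohexol and cisplatin and level with EGF with vancomycin. ERBB3 was last in control cells, together with BTC, and with vancomycin. These orders depend on the length used, and with the longest transcript in place of all exons 4 of the 10 genes kept their rank in control cells, 8 with iohexol, 8 with cisplatin and 3 with vancomycin.

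Summed over the 6 ligands, the level was 255 ± 13.7 CPM per kb in control cells and 236 ± 3.42 with cisplatin, and 141 ± 14.2 with iohexol and 112 ± 7.20 with vancomycin. The lowest control sum was 244 and the highest with iohexol 157 and with vancomycin 119. AREG made up 41.2% ± 0.383 of the ligand sum in control cells, 46.8% ± 0.950 with cisplatin, 33.7% ± 1.30 with iohexol and 30.1% ± 0.783 with vancomycin. The share of HBEGF was 11.0% ± 0.436 in control cells and 25.3% ± 0.506 with cisplatin, close to the 22.2% ± 1.59 with vancomycin, where the log2 change of HBEGF itself was -0.22. The receptor sum was 49.9 ± 2.15 CPM per kb in control cells, 57.6 ± 3.25 with iohexol, 20.2 ± 0.748 with cisplatin and 22.9 ± 2.82 with vancomycin. EGFR was 83.4% ± 1.65 of it in control cells, 81.9% ± 3.55 with iohexol, 55.5% ± 1.32 with cisplatin and 67.5% ± 3.11 with vancomycin. With iohexol the ligand sum was thus lower and the receptor sum higher in every sample than in control cells, and with cisplatin the receptor sum was lower while the ligand sum of 232 to 238 lay just below the lowest control sum. These sums are descriptions with no test, and transcripts of different ligands do not stand for equal amounts of protein. Sums and shares also depend on the length used. With the longest transcript in place of all exons, ERBB2 (16.1 CPM per kb) stood above EGFR (14.3) with cisplatin.

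**Figure D4:**
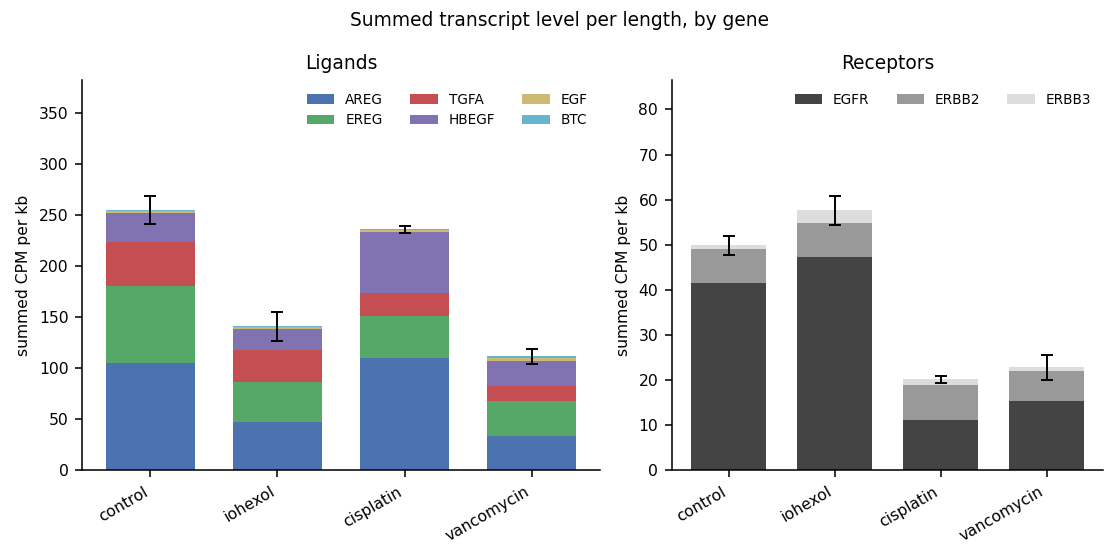
Summed level of the ligands (left) and receptors (right) per kb of gene length (y axis, CPM per kb from 0; x axis, group). Stacked colours are the mean of each gene and error bars the SD of the sum over 3 samples. Ligands sum to 255 in control, 141 with iohexol, 236 with cisplatin and 112 with vancomycin, and receptors to 49.9, 57.6, 20.2 and 22.9.

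Genes around the receptor were taken from lists of known function. The lists were chosen with earlier results of these data known, so their counts are a description. Shedding proteins were ADAM proteases, their cofactors and the inhibitor TIMP3, which was at 0 CPM in all groups and was not tested. The 9 of 10 tested counted 6 lower and 2 higher with cisplatin, with a median log2 change of -0.48. Over all genes 30.6% were lower and 29.2% higher, with a median of 0.01. ADAM12 fell from 60.8 to 9.73 CPM, ADAM10, the other main ligand sheddase, from 288 to 125, and ADAM9 from 48.0 to 21.5. With iohexol 3 of them were lower and 1 higher (median -0.28), beside 9.77% and 11.2% of all genes (median 0.01), and ADAM12 fell to 19.1 CPM. With vancomycin 2 were lower and 4 higher (median 0.26), beside 28.8% and 29.1% of all genes (median -0.01). The largest change there was in RHBDF2, iRhom2, which escorts ADAM17 to the cell surface and rose from 27.6 to 68.8 CPM (log2 fold change 1.28 ± 0.11; adjusted p = 1.19e-09, edgeR). The 2 lower with vancomycin were ADAM10 (log2 fold change -0.93) and ADAM9 (-0.82), so both genes fell with this drug as well as with cisplatin. Neither was a DEG with vancomycin.

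The genes commonly read as output of ERK signaling (16, all tested) were counted next. With cisplatin 11 were higher and 2 lower, with a median log2 change of 0.44, beside 29.2% of all genes higher and 30.6% lower and a median of 0.01. DUSP6, a phosphatase of ERK, rose from 44.5 to 113 CPM, DUSP5, a nuclear ERK phosphatase, from 86.5 to 212, and the transcription factor ETV4 from 20.7 to 50.4. With iohexol 5 were higher and 2 lower (median 0.06), beside 11.2% and 9.77% of all genes and a median of 0.01. DUSP6 rose to 109 CPM, while the AP-1 member FOSL1 fell from 109 to 44.9 and the immediate early gene EGR1 from 9.65 to 2.57. With vancomycin 5 were higher and 6 lower (median 0.04), beside 29.1% and 28.8% of all genes and a median of -0.01. CCND1, cyclin D1, fell from 293 to 86.4 CPM and EPHA4 from 34.7 to 10.0, while EGR1 rose to 27.8. The same list thus held DEGs in both directions with iohexol and vancomycin.

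Adaptors, RAS and RAF proteins and kinases next to the receptor (24, all tested) held a single DEG. Over all genes 11.2% were higher and 9.77% lower with iohexol, 29.2% and 30.6% with cisplatin and 29.1% and 28.8% with vancomycin, with medians of 0.01, 0.01 and -0.01, and DEGs were 5.28%, 16.3% and 18.5%. With iohexol 1 was higher, 2 lower and 21 did not pass (median -0.04). With cisplatin 2 were higher and 12 lower (median -0.16), and the only DEG was SHC1, an adaptor of the receptor, which rose from 145 to 311 CPM. With vancomycin 7 were higher and 7 lower (median 0.05), none of them a DEG. Negative regulators (12, all tested) showed 1 higher and 2 lower with iohexol (median -0.02), and 3 higher and 5 lower with both cisplatin (median -0.17) and vancomycin (median -0.13). PTPRJ, a receptor phosphatase that acts on EGFR, was the only DEG among them and fell from 197 to 61.8 CPM with cisplatin (log2 fold change -1.68 ± 0.06; adjusted p = 5.76e-13, edgeR). It also passed as lower with iohexol (128 CPM) and with vancomycin (121 CPM).

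**Figure D5:**
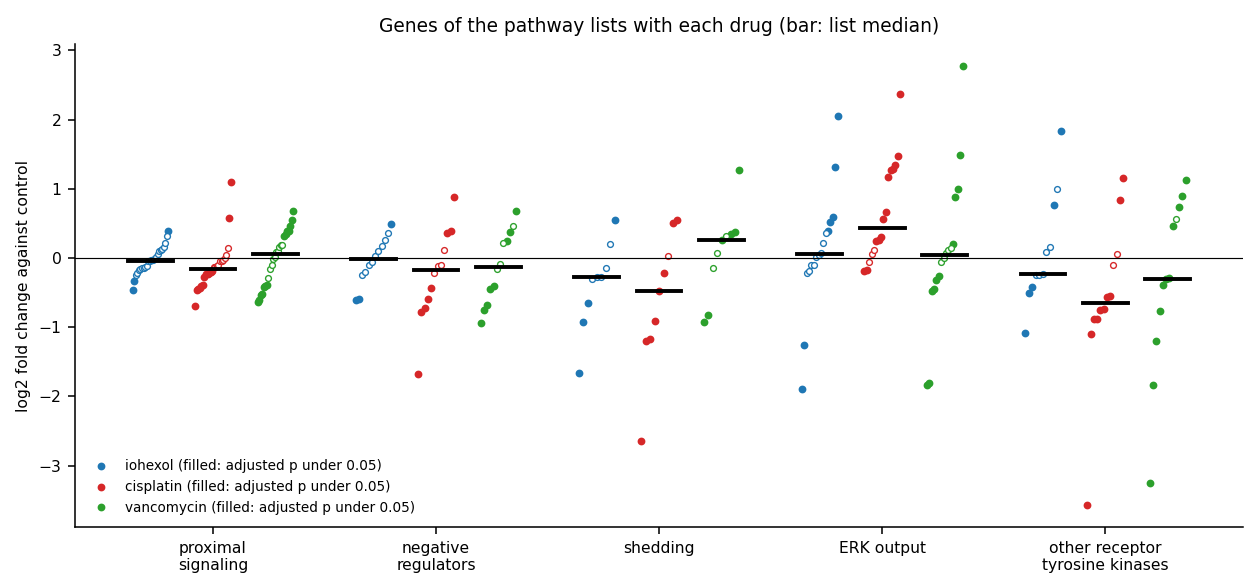
Log2 fold change against control (y axis) of each tested gene in 5 lists (x axis), by drug. Filled points passed the test, open points did not, and bars are list medians. ERK output genes lie mostly above 0 with cisplatin, with a median of 0.44, and shedding genes mostly below 0, with a median of -0.48.

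Other receptor tyrosine kinases (14) were read beside EGFR. Of 12 tested with cisplatin, 8 were lower and 2 higher, with a median log2 change of -0.65, beside 30.6% of all genes lower and 29.2% higher and a median of 0.01. IGF1R fell from 138 to 64.4 CPM, and DDR2, a collagen receptor, was at 1.04 CPM in control cells and 0.0806 with cisplatin, less than 3 counts stand for. PDGFRB was at 0.606 and 1.35 CPM. With vancomycin 7 of 12 were lower and 4 higher (median -0.30), beside 28.8% and 29.1% of all genes (median -0.01). The receptor FGFR2 fell from 45.1 to 4.86 CPM, AXL from 579 to 167 and FGFR3 from 105 to 47.0. With iohexol 3 of 11 were lower and 2 higher (median -0.24), beside 9.77% and 11.2% of all genes (median 0.01), MERTK rising from 9.14 to 32.2 CPM and FGFR3 falling to 49.1.

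Genes with the most similar profile over the 12 samples were found by the root mean square difference of centred log2 CPM among 17072 other genes. For AREG they were NTN4 (difference 0.17), POLR3G (0.17) and DPYSL3 (0.19). NTN4 had 51.7 CPM in control cells, 23.2 with iohexol, 59.7 with cisplatin and 21.1 with vancomycin, the same order of groups as AREG. For EREG they were CTHRC1 (0.11), DYRK2 (0.15) and QKI (0.16). HBEGF was nearest to UAP1 (0.12), GJA1 (0.12) and ZNF473 (0.15). GJA1, a gap junction protein, had 88.8 CPM in control cells, 63.4 with iohexol, 199 with cisplatin and 92.4 with vancomycin. Its vancomycin mean was thus above its control mean, while that of HBEGF was below. TGFA was nearest to LNPEP, SEMA6A and HSPA12A (0.12 to 0.13).

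The gene nearest to BTC was GPX8 (0.13), followed by UBE2E3 (0.14) and GAPDH (0.15), a glycolytic enzyme that is often used as a reference gene and here had 2772 CPM in control cells and 5353 with vancomycin. EGFR was nearest to BRSK2 (0.14) and to a pair of solute carriers, SLC34A2 (0.15), a phosphate transporter, and SLC17A3 (0.17). ERBB3 was nearest to SH3TC2 (0.15), IQCD (0.17) and GALNT9 (0.22), the last at 3.49 CPM or less. None of these 7 genes had another of the 10 among its nearest 3. Such likeness describes levels in 12 samples of 4 groups.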

How the data were processed

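Poly(A) RNA of 12 HK-2 samples was sequenced from a library kit that does not mark strand. The authors deposited whole-number read counts per gene, not normalized. The submitters' processing notes name CASAVA 1.8, fastp, HISAT2 2.0.5, featureCounts 1.5.0-p3 and DESeq2 1.20.0, and the genome build was not given in the sources used here. Counts of each drug group were tested against the 3 control samples in edgeR 4.0.16 (R 4.3.3; TMM factors, filterByExpr with a count minimum of 10 and a total of 15, quasi-likelihood test, Benjamini-Hochberg adjustment over all genes tested), and pairs of drugs as contrasts in a fit of all 12 samples. A gene passed at an adjusted p under 0.05, and a passing gene with a log2 fold change above 1 or below -1 was called a DEG. SE is the log2 fold change divided by the root of F. CPM is the count over total count times TMM factor, and CPM per kb used the deposited gene length, which equals the union of GENCODE exons. On simulated counts for each comparison with the control, all of 50 genes changed by 2 in each direction were called, and 44 to 50 of 50 genes changed by 1, with 4 to 7 false calls. Every simulated gene had the same dispersion, and only 200 genes were changed, equally up and down. The real samples had unequal spread and far more genes passing, so these rates may not apply to them.

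All 10 genes were named, with up to 3 DEGs of smallest p per list and drug, EPGN, NRG1, ERBB4 and the 3 nearest profiles of each member that was a DEG. The genes and lists were chosen with earlier results of these data known. Alternatives were DESeq2 1.42.0, limma-voom (limma 3.58.1), RLE factors, library size only, no filter, 10 counts in every sample, another set of samples in the fit, a replicate block and each sample left out.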

Additional observations from a re-analysis of the deposited data

How the results depend on the processing

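Of the 30 log2 changes against control, each under 14 alternatives, 385 of 420 values kept direction and call, and of the 30 differences between drugs 398 of 420. Both EREG and TGFA with every drug, AREG with iohexol and vancomycin, EGFR with cisplatin and vancomycin, HBEGF with iohexol and cisplatin, BTC and ADAM17 with vancomycin, ADAM17 with cisplatin, and ERBB3 with iohexol and cisplatin passed in all of them. The calls of BTC and EGF with cisplatin and of HBEGF with vancomycin were lost in 6, 4 and 8 of the 14. The values that changed sign were all small and had not passed. Leaving out 1 sample at a time gave ERBB2 values of -0.066 to 0.22 with iohexol and -0.052 to 0.14 with cisplatin. For cisplatin against iohexol it gave EREG values of -0.033 to 0.21, EGF -0.15 to 0.017 and ERBB2 -0.14 to 0.13, and for vancomycin against iohexol EGF -0.013 to 0.15. With library size in place of TMM factors EGF was 0.055 for cisplatin against iohexol, -0.12 for vancomycin against iohexol and -0.18 for vancomycin against cisplatin. That scaling moved the median of all genes by 0.22 for cisplatin, 0.13 for cisplatin against iohexol, -0.21 for vancomycin against iohexol and -0.33 for vancomycin against cisplatin. The share of higher genes among those passing went from 53.4% to 67.3% with iohexol, from 48.9% to 68.0% with cisplatin, and for the same pairs of drugs from 48.2% to 58.8%, from 51.3% to 34.5% and from 53.6% to 33.6%. With iohexol 3284 genes passed, 1849 to 4544 when 1 sample was left out. The lowest counts came without control 2 (1849) and iohexol 2 (2111) and the highest without iohexol 3. The cause was not tested.

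Same-numbered samples did not deviate together (mean correlation -0.02 over 18 pairs, beside 0.01 over 36 other pairs), so the numbers were not taken to pair the samples. With the replicate number as a block, 2096 genes passed with iohexol, and ERBB2 with vancomycin passed (-0.22, adjusted p = 0.0318), which made 9 genes in place of 8. The count of members passing was the same in the other 5 comparisons. Depth limits BTC, at 1.60 to 6.35 CPM, most of the 10 genes.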

Other observations

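The labelled cell type has markers that moved as well. Of 13 proximal tubule and epithelial markers, 10 were tested with iohexol, where 4 were higher and 3 lower, beside 11.2% and 9.77% of all genes. PAX8, a renal lineage factor, rose from 372 to 617 CPM, and the mesenchymal filament gene VIM fell from 630.2 to 347 CPM. The epithelial keratin KRT18 fell as well, from 174 to 128 CPM, and KRT8 and KRT19 did not pass. With cisplatin 9 were tested, 3 of them higher and 5 lower, beside 29.2% and 30.6% of all genes. The simple epithelial keratins KRT8 and KRT18 rose from 493 to 844 CPM and from 174 to 326 CPM, and PAX8 fell to 131 CPM. VIM fell to 364 CPM with cisplatin. With vancomycin 11 were tested, 6 higher and 2 lower, beside 29.1% and 28.8% of all genes. GGT1, a brush border enzyme, rose from 189 to 363 CPM, and CDH2, N-cadherin, fell from 272 to 145 CPM, as it did with the other drugs (157 CPM with iohexol and 131 CPM with cisplatin). VIM rose from 630.2 to 840 CPM with vancomycin. The keratins KRT8 and KRT18 rose with vancomycin as well, to 821 and 299 CPM. KRT19 rose from 43.6 CPM to 54.5 with cisplatin and to 84.4 with vancomycin. PAX2 fell from 1.47 to 0.0205 CPM, less than 3 counts stand for, and the brush border gene ANPEP did not pass. Of 10 markers of other cell types, 2 were tested with iohexol (1 higher), 3 with cisplatin (2 higher) and 3 with vancomycin (2 higher and 1 lower). PECAM1, an endothelial marker, was at 1.32 CPM in control cells, 3.80 with iohexol and 0.0831 with vancomycin, the last less than 3 counts stand for. VWF, the other endothelial marker, had at most 8 counts in any sample and was not tested.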
